A study of Mus musculus with 16 samples.

Results

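The 10 genes described here encode chemokines and were taken by name from the 39179 gene identifiers of the count table, from a list drawn up with earlier results of these data known. They are *Ccl2*, *Ccl12*, *Ccl3*, *Ccl4*, *Ccl6* and *Ccl9* of the CC family, *Cxcl10*, *Cxcl16* and *Cxcl12* of the CXC family, and *Cx3cl1*, the single gene of the CX3C family. All 10 were found in the table. Their counts differed widely, so that 8 of the 10 are given as raw counts in each mouse.

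Brain RNA was sequenced from 16 mice in 4 groups of 4. The groups were wild-type mice (*MRPS5* WT) and mice homozygous for the V338Y allele of *MRPS5*, each aged 3 or 19 months. *MRPS5* is a small-subunit protein of the ribosome inside mitochondria, and V338Y is a knock-in substitution carried in every cell of C57/BL6 mice that makes mitochondrial translation less accurate. No other allele or treatment is named for any group, and gene counts do not show which *MRPS5* allele a library carried. In the order used below, the 3-month-old mice are numbered 9, 10, 11 and 12 (wild type) and 13, 14, 15 and 16 (V338Y), and the 19-month-old mice 12, 13, 14 and 15 (wild type) and 17, 18, 19 and 20 (V338Y). Shared numbers do not mark the same animal, and the labels of all 19-month samples carry a suffix whose meaning they do not give.

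Chemokines are small secreted or membrane-bound proteins that direct the movement of cells through G protein-coupled receptors. In the brain, *Cx3cl1* is made mainly by neurons and its receptor *Cx3cr1* is carried by microglia, while *Cxcl12* is made by vascular and meningeal cells and by some neurons. Most inflammatory CC and CXC chemokines have low transcript levels in the undisturbed brain, and microglia, astrocytes, endothelial cells and infiltrating leukocytes can make them.

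Of the 10 genes, 7 lie on chromosome 11 (GRCm38 coordinates of the GENCODE M21 annotation). *Ccl9* (chr11:83572919-83578636), *Ccl6* (chr11:83587882-83593087), *Ccl3* (chr11:83647844-83649355) and *Ccl4* (chr11:83662584-83664683) lie within 91.8 kb of each other. *Ccl2* (chr11:82035571-82037453) and *Ccl12* (chr11:82101845-82103400) are 64.4 kb apart, and *Cxcl16* (chr11:70453983-70459984) lies apart from both clusters. *Cxcl10* is on chromosome 5 (chr5:92346638-92348889), *Cxcl12* on chromosome 6 (chr6:117168535-117181367) and *Cx3cl1* on chromosome 8 (chr8:94772009-94782427). *Cxcl10* lies wholly within *Art3*, a gene of the opposite strand, and shares exon sequence with it. The span of *Cxcl16* overlaps that of *Zmynd15* on the opposite strand by 552 bases, and these genes also share exon sequence. The library kit keeps the strand, but the strand setting of the counting is not stated, so reads of these pairs may not be told apart. *Art3* had 1179 and *Zmynd15* 76 counts summed over the 16 mice.

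Promoter sequences are shown for 4 members that stand for different kinds of start region, *Cxcl10* with interferon and NF-kB type motifs, *Ccl9* and *Ccl12* as members of the 2 chromosome 11 clusters, and *Cxcl12* as the member with the most counts among those called with age. Each is the 250 bases before the RefSeq start on GRCm38.p6, written 5′ to 3′ on the strand of the gene, and capitals mark matches to the motifs searched. The table of RefSeq promoters used here was matched for 7 of the 10 members, and not for *Ccl2*, *Ccl4* and *Cxcl16*.
*Cxcl10* (chr5:92348890-92349139, minus strand): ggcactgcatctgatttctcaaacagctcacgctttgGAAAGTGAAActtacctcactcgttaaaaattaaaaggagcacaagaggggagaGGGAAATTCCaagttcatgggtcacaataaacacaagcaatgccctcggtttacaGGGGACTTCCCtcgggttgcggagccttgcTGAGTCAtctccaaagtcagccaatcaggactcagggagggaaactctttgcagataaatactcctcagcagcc
*Ccl9* (chr11:83578637-83578886, minus strand): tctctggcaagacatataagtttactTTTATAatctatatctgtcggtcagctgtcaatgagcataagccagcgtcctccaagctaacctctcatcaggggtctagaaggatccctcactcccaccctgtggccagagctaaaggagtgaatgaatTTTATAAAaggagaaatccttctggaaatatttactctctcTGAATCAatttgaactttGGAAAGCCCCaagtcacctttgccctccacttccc
*Ccl12* (chr11:82101595-82101844, plus strand): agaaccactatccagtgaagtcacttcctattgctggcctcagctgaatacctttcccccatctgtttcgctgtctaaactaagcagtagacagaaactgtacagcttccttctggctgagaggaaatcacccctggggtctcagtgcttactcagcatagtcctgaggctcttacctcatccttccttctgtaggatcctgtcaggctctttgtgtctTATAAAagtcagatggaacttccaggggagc
*Cxcl12* (chr6:117168285-117168534, plus strand): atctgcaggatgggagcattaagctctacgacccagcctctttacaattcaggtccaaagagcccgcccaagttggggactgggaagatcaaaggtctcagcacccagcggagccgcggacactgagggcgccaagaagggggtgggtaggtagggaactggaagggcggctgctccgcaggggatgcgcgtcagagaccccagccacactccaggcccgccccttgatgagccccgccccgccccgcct

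The motifs searched on both strands were the NF-kB consensus, the interferon response pair of TTTC, any 2 bases and TTTC, the AP-1 element TGANTCA and the TATA box TATAAA. In the *Cxcl10* window, the NF-kB consensus was matched in 2 separate stretches, the first starting 159 bases before the start, and the TTTC pair was matched on the reverse strand 213 bases before it. The same window held 1 match to TGANTCA, 74 bases before the start. The *Ccl9* window held 1 match to the NF-kB consensus at 35 bases, 1 to TGANTCA at 53 bases and TATAAA in 2 stretches, 1 of which it fills on both strands with an overlap. The *Ccl12* window held a TATAAA match 31 bases before the start. The windows of *Cxcl12*, *Ccl6* and *Ccl3* held no match to any of the 4 motifs. The bases after the RefSeq start used for *Ccl3* were not found in its GENCODE M21 transcripts. Among 32851 promoter windows of the same length, 7.25% held the NF-kB consensus, 2.98% the TTTC pair, 6.75% TGANTCA and 12.4% TATAAA. The GC content was 64.4% in the *Cxcl12* window, 48.0% for *Cxcl10*, 43.6% for *Ccl9* and 48.4% for *Ccl12*, beside a median of 52.4% over all windows (quartiles 45.2% and 61.2%). The *Cx3cl1* window overlaps an annotated exon and is not shown.

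The libraries held between 6181448 and 19601664 counts. Transcripts of neurons, astrocytes and oligodendrocytes were present in all of them, although the label on RNA extraction speaks of muscle and the methods of cortex. Beside age, the young and old libraries differed in 2 further ways. The Y-linked *Ddx3y* averaged 118.8 CPM (the count scaled to the size of the library) in wild-type and 111.1 CPM in V338Y mice at 3 months and was at 0 in all old mice, although all mice are described as female. *Uty*, *Kdm5d* and *Eif2s3y*, also Y-linked, had counts in every young mouse and 0 in every old mouse. The X-linked *Xist* averaged 0.64 and 0.995 CPM in young and 998.6 and 806.7 CPM in old wild-type and V338Y mice. By these transcripts, the young libraries were male-type and the old ones female-type. Markers of cerebellum summed to between 668.6 and 1921 CPM in 7 of the 8 young libraries, to 90.7 CPM in V338Y mouse 14 and to between 71.6 and 90.0 CPM in the old ones. Age therefore cannot be told apart from sex, from dissection or from whatever the suffix marks in the comparisons of old with young mice. In all comparisons, fewer cells of a type and less RNA per cell cannot be told apart.

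Per kb of exon, the transcript level of *Cx3cl1* was above that of every other member in all 4 groups. It was 100.7 ± 3.999 CPM per kb (SD, n = 4) in 3-month-old and 96.9 ± 1.79 in 19-month-old wild-type mice. *Cxcl12* came next in all 4 groups, with 3.398 ± 0.39 CPM per kb in young and 21.1 ± 2.38 in old wild-type mice. Both gaps, from *Cx3cl1* to *Cxcl12* and from *Cxcl12* to the third member, were larger than the sum of the SDs in every group. Below these, the order was *Ccl6*, *Cxcl16*, *Ccl12*, *Ccl9*, *Ccl2*, *Ccl4*, *Cxcl10* and *Ccl3* in young wild-type mice and *Ccl12*, *Ccl6*, *Cxcl16*, *Ccl3*, *Ccl4*, *Ccl2*, *Ccl9* and *Cxcl10* in old wild-type mice. In these lower ranks, the level of *Ccl9* lay above that of *Ccl2* by more than their spread in young wild-type mice, and that of *Cxcl16* above that of *Ccl3* in old wild-type mice. The other neighbours did not differ beyond their spread. In both V338Y groups *Ccl12* held the third place and *Cxcl10* the last, and no neighbours from the third place on differed beyond their spread.

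**Figure D1:**
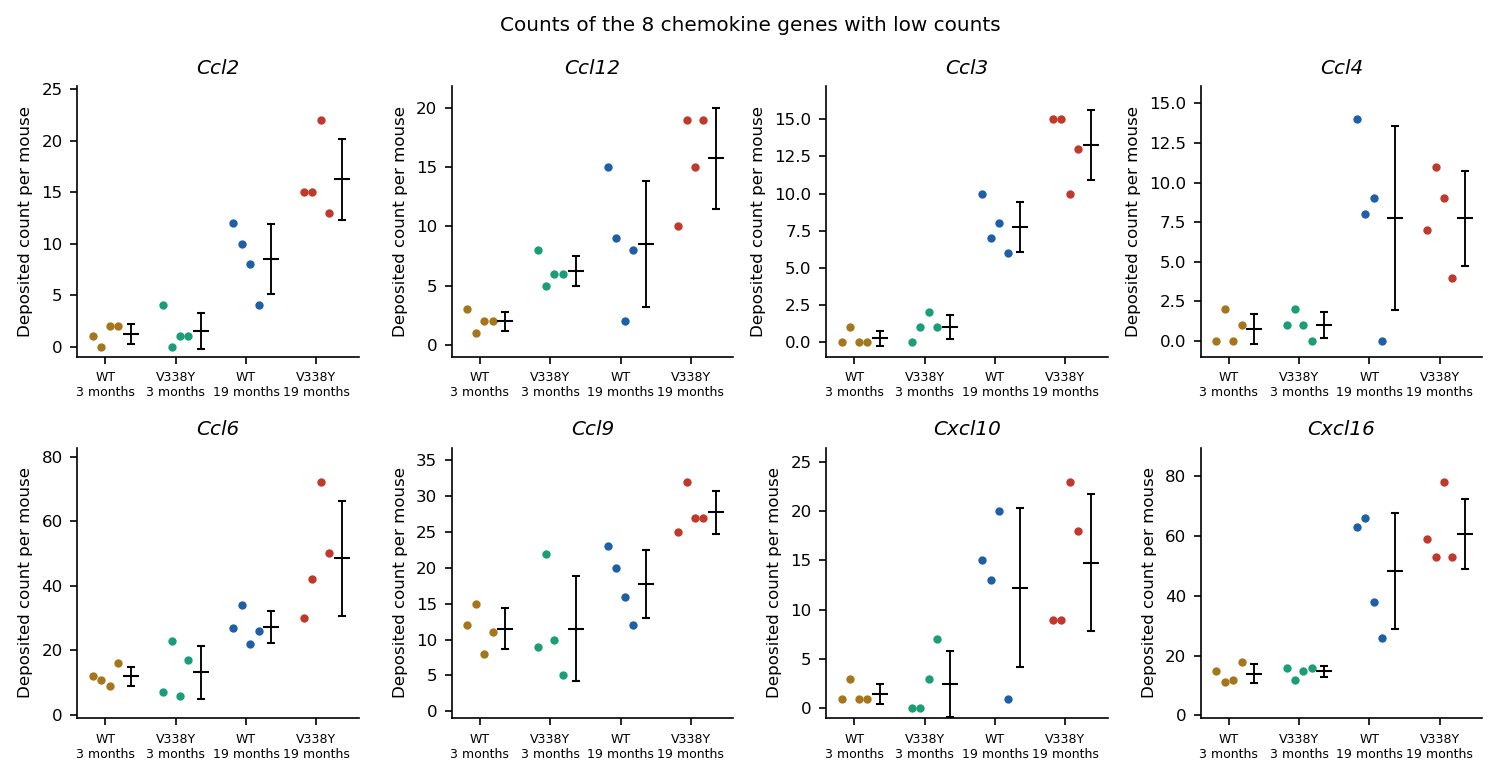
Deposited counts (y axis, reads per mouse, not normalized) of the 8 members with low counts in the 4 groups (x axis), where each point is 1 mouse and the bar beside it gives the mean ± SD of the 4 mice. *Ccl2* lies between 0 and 4 counts in the young and between 4 and 22 in the old mice, and *Cxcl16* between 11 and 18 in the young and between 26 and 78 in the old mice.

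The comparison of 19- with 3-month-old mice asked how these transcripts differ with age within each genotype. In wild-type mice, *Ccl2*, *Ccl6*, *Ccl9*, *Cxcl10*, *Cxcl16* and *Cxcl12* were higher at 19 months, with fitted differences between 0.85 and 3.14 on the log2 scale, and *Cx3cl1* differed by -0.04. In V338Y mice, these 6 and also *Ccl3* and *Ccl12* were higher at 19 months, by 1.44 to 3.74, and *Cx3cl1* differed by 0.01. Genes with at least 10 counts in 2 or more mice of 1 group were tested, by edgeR's quasi-likelihood test, with Benjamini-Hochberg adjustment over all genes tested. In wild-type mice 7 of the 10 members were tested, 5 of them with enough counts at both ages and *Ccl2* and *Cxcl10* only through the old mice, and 6 were called higher, beside 31.4% of all genes tested. In V338Y mice 9 were tested, 5 with enough counts at both ages and *Ccl2*, *Ccl3*, *Ccl12* and *Cxcl10* only through the old mice, and 8 were called higher, beside 23.1% of all genes tested. A member that entered through the old mice alone had to be higher there. In CPM, every old mouse lay above every young mouse for 6 of the 10 members in wild-type mice, of which *Ccl3* was not tested, and for 9 in V338Y mice, of which *Ccl4* was not tested. Old mice lay above young mice in this way for 26.9% of the genes tested in wild-type and 22.2% in V338Y mice. Given how the members were listed, these counts describe them and are not independent evidence.

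Among the ligands of *Ccr2*, the receptor that draws monocytes out of the blood, *Ccl2* had 1, 0, 2 and 2 counts in the 3-month-old and 12, 10, 8 and 4 counts in the 19-month-old wild-type mice. In V338Y mice it had 4, 0, 1 and 1 counts at 3 months and 15, 15, 22 and 13 at 19 months. All old mice were above the young mice of their genotype in CPM, and the lowest old value came from mouse 15, the smallest library. With at most 3 counts in each young wild-type mouse, *Ccl2* was at least 3.05-fold higher in old wild-type mice, taken against a floor of 3 counts per library (adjusted p = 5.54e-05). Without the old mouse 12 or 13, *Ccl2* had too few counts to be tested there. In V338Y mice the log2 fold change was 3.47 (SE 0.54, adjusted p = 0.000213), and 4.54 without the young mouse 13, which held 4 of the 6 young counts.

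*Ccl12*, a second ligand of *Ccr2* in mice, had 3, 1, 2 and 2 counts in young and 15, 9, 2 and 8 in old wild-type mice. In V338Y mice it had 8, 5, 6 and 6 counts at 3 months and 10, 19, 15 and 19 at 19 months. The wild-type groups overlapped, because of the 2 counts of the old mouse 14, and the V338Y groups did not. The filter on counts removed *Ccl12* in wild-type mice, where the lower bound of its fold against the floor of 3 counts was 3.22. In V338Y mice it was higher by 1.45 on the log2 scale (SE 0.32, adjusted p = 0.00245).

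*Ccl3*, a ligand of *Ccr1*, and *Ccl4* are made by activated myeloid cells. *Ccl3* had 0, 1, 0 and 0 counts in young and 10, 7, 8 and 6 in old wild-type mice, and 0, 1, 2 and 1 against 15, 15, 10 and 13 in V338Y mice. No young mouse reached the level of an old one, and the lower bounds were 2.99-fold in wild-type and 5.24-fold in V338Y mice (adjusted p = 0.00024 in V338Y mice, removed by the filter in wild-type mice). *Ccl4* had 0, 2, 0 and 1 counts in young and 14, 8, 9 and 0 in old wild-type mice, and 1, 2, 1 and 0 against 7, 11, 9 and 4 in V338Y mice. The old wild-type mouse 15 had no count of *Ccl4*, which allows up to 3 counts, and so the wild-type groups overlapped while the V338Y groups did not. *Ccl4* was removed by the filter in both genotypes, and the lower bounds of its rise were 2.53-fold in wild-type and 2.94-fold in V338Y mice. Fitted without the filter, the 3 members it had removed in wild-type mice and *Ccl4* in V338Y mice had adjusted p-values of 1.64e-07 (*Ccl3*), 6.31e-06 (*Ccl4*), 0.000209 (*Ccl12*) and 0.000626 (*Ccl4* in V338Y mice). The 3 wild-type values rest on 1.383e+05 to 1.532e+05 degrees of freedom, so the spread of each gene between mice hardly entered them. They are given as a description only.

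*Ccl6* and *Ccl9* are rodent chemokines that bind *Ccr1*, and both had enough counts at both ages. *Ccl6* had 12, 11, 9 and 16 counts in young and 27, 34, 22 and 26 in old wild-type mice, and 7, 23, 6 and 17 against 30, 42, 72 and 50 in V338Y mice. The groups did not overlap in either genotype. Its level went from 1.09 ± 0.39 to 2.94 ± 1.004 CPM in wild-type mice (SD, n = 4 each; log2 fold change 1.42, SE 0.29, adjusted p = 7.92e-05, edgeR) and from 0.76 ± 0.38 to 3.16 ± 0.42 CPM in V338Y mice (4.01-fold, SE 0.28 on the log2 scale, adjusted p = 9.21e-05, edgeR).

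*Ccl9*, the promoter of which is shown above, had 12, 15, 8 and 11 counts in young and 23, 20, 16 and 12 in old wild-type mice. In V338Y mice it had 9, 22, 10 and 5 counts at 3 months and 25, 32, 27 and 27 at 19 months. Its groups did not overlap in CPM, but the young V338Y mouse 14 came close to the old mice. It rose from 1.03 ± 0.32 to 1.82 ± 0.16 CPM in wild-type mice (log2 fold change 0.85, SE 0.28, adjusted p = 0.0108, edgeR) and from 0.67 ± 0.34 to 1.93 ± 0.50 CPM in V338Y mice (log2 fold change 1.44, SE 0.34, adjusted p = 0.00355, edgeR; n = 4 each). This was the smallest change among the members called in wild-type mice, and it lost its call there when all libraries were thinned to the smallest (log2 fold change 0.79, adjusted p = 0.0689). In V338Y mice the log2 fold change of *Ccl9* was 0.74 with mouse 14 as the sole young library, a setting chosen after seeing the data.

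*Cxcl10* is a ligand of *Cxcr3* that interferons induce, and its promoter window held the interferon and NF-kB type matches. It had 1, 3, 1 and 1 counts in young and 15, 13, 20 and 1 in old wild-type mice, and 0, 0, 3 and 7 against 9, 9, 23 and 18 in V338Y mice. The single count of the old wild-type mouse 15 made the wild-type groups overlap, whereas the V338Y groups did not. In wild-type mice the old mice had a mean at least 4.23-fold higher against the floor (adjusted p = 1.79e-05), and in V338Y mice the log2 fold change was 2.61 (SE 0.65, adjusted p = 0.00563). The V338Y value was 3.83 without the young mouse 16, which held 7 of the 10 young counts, and without the old mouse 19 or 20 the gene was not tested.

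*Cxcl16* is a membrane-bound ligand of *Cxcr6* that also acts as a scavenger receptor. It had 15, 11, 12 and 18 counts in young and 63, 66, 38 and 26 in old wild-type mice, and 16, 12, 15 and 16 against 59, 53, 78 and 53 in V338Y mice. Every old mouse was above every young mouse of either genotype. The level rose from 1.30 ± 0.50 to 4.76 ± 0.62 CPM in wild-type mice (log2 fold change 1.98, SE 0.23, adjusted p = 1.11e-08) and from 0.91 ± 0.21 to 4.199 ± 1.22 CPM in V338Y mice (log2 fold change 2.19, SE 0.25, adjusted p = 1.77e-05; SD, n = 4 each).

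*Cxcl12*, the ligand of *Cxcr4* that keeps progenitor and immune cells in place, was the member called with age that had at least 197 counts in every mouse. It had 197, 395, 334 and 362 counts in young and 1783, 2191, 1709 and 1068 in old wild-type mice, and 484, 529, 426 and 486 against 1438, 2371, 2981 and 2991 in V338Y mice. In CPM the 8 young mice lay between 24.3 and 31.1, and the 8 old mice between 143.6 and 185.0. It rose from 27.8 ± 3.15 to 172.6 ± 19.4 CPM in wild-type mice (log2 fold change 2.64, SE 0.099, adjusted p = 3.36e-10) and from 29.1 ± 1.82 to 160.4 ± 16.1 CPM in V338Y mice (log2 fold change 2.46, SE 0.082, adjusted p = 4.29e-10; SD, n = 4 each). These are 6.22-fold and 5.49-fold differences.

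*Cx3cl1*, which tethers to neuronal membranes and signals to microglia, had 3393, 5771, 4393 and 4581 counts in young and 4645, 4556, 3603 and 2260 in old wild-type mice. In V338Y mice it had 6153, 9613, 4571 and 5668 counts at 3 months and 3652, 6001, 7627 and 6281 at 19 months. Its level was 395.8 ± 15.7 CPM in young and 380.7 ± 7.05 in old wild-type mice, and the groups overlapped (log2 fold change -0.04, 95% confidence interval -0.13 to 0.04, adjusted p = 0.345). In V338Y mice it was 383.6 ± 73.7 and 387.6 ± 14.5 CPM (log2 fold change 0.01, 95% confidence interval -0.23 to 0.24, adjusted p = 0.957; SD, n = 4 each). The wide spread in young V338Y mice came from values of 392.5, 484.2, 321.1 and 336.7 CPM, of which the highest was mouse 14. Mouse 14 lay above the 4 old V338Y mice, which were between 368.4 and 399.5 CPM.

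**Figure D2:**
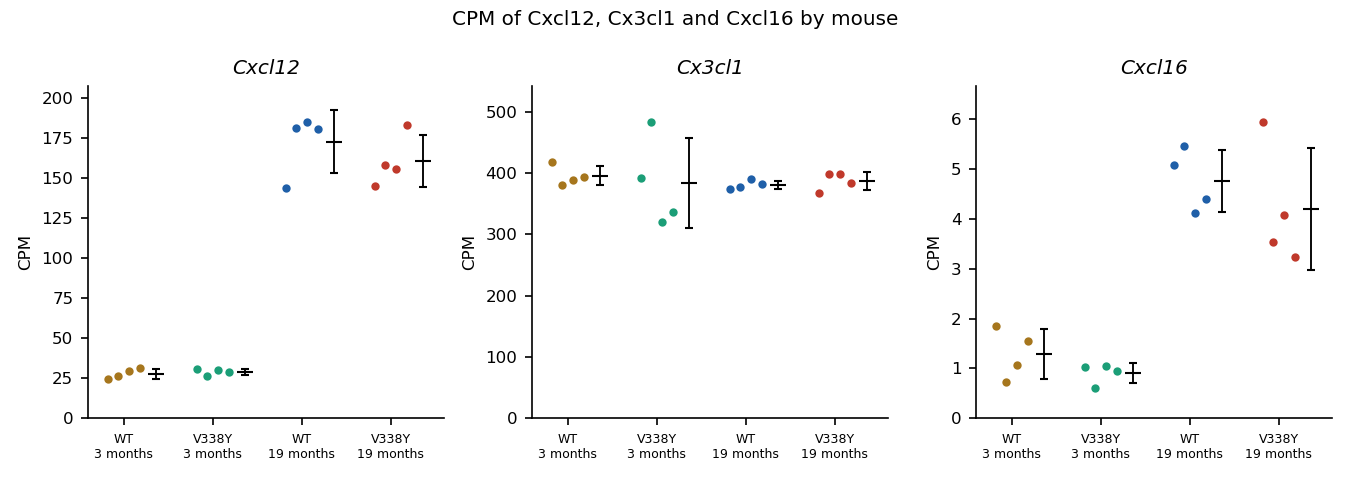
CPM (y axis, from 0, counts scaled to library size with TMM) of *Cxcl12*, *Cx3cl1* and *Cxcl16* in the 4 groups (x axis), where each point is 1 mouse and the bar gives the mean ± SD of the 4 mice. *Cxcl12* lies between 24.3 and 31.1 CPM in the young and between 143.6 and 185.0 CPM in the old mice, whereas *Cx3cl1* lies between 321.1 and 484.2 CPM in the young and between 368.4 and 399.5 CPM in the old mice.

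For mouse 14, the young library with few cerebellum transcripts, the other members are set beside those of the 4 old V338Y mice. Its *Cxcl12* was 26.6 CPM, within the range of the other young mice, and between 145.1 and 183.1 CPM in the old mice. Its *Cxcl16* was 0.60 CPM beside 3.24 to 5.95, its *Ccl6* 1.16 CPM beside 2.796 to 3.76 and its *Ccl9* 1.11 CPM beside 1.41 to 2.52. All 4 transcripts were thus lower in mouse 14 than in each old V338Y mouse. It had between 0 and 5 counts of *Ccl2*, *Ccl3*, *Ccl4*, *Ccl12* and *Cxcl10*, and its endothelial markers summed to 294.6 CPM, within the range of the other young mice. A single library has no spread of its own, so these values are a description with no test.

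Markers of several cell types moved in the same comparisons, and their part in the results on the chemokines was not tested. Of all genes tested, 31.4% were called higher in wild-type and 23.1% in V338Y mice. Called lower were 5065 of 16101 genes in wild-type and 4306 of 16770 in V338Y mice. All 10 endothelial markers were called higher at 19 months in both genotypes, and their summed level lay between 283.5 and 306.2 CPM in young and between 1250 and 1484 CPM in old mice. All 14 microglial markers were called higher as well, with sums between 301.0 and 418.5 CPM in young and between 687.1 and 784.3 CPM in old mice. All 8 markers of pericytes and smooth muscle were called higher in both genotypes (183.9 to 240.3 against 808.9 to 994.3 CPM). The 7 markers of meninges (85.0 to 118.1 against 234.7 to 303.8 CPM) and the 7 of border macrophages (36.6 to 50.4 against 105.9 to 139.3 CPM) were called higher in wild-type and 6 of each in V338Y mice. Of the 7 markers of monocytes and neutrophils, 4 of the 5 tested were called higher in each genotype (0.95 to 6.45 against 12 to 28.5 CPM). Of those 5 tested, 2 in wild-type and 4 in V338Y mice passed the filter only through the old mice and had to be higher there. The same held for 1 border macrophage marker and 3 markers of activated microglia in each genotype. The 5 blood transcripts were called higher in both genotypes (123.9 to 256.0 against 383.9 to 899.5 CPM). Of 7 T cell markers 1 was tested and not called, and *Cd3e* was at 0 in all young wild-type and *Cd3g* in all young V338Y mice. All 10 markers of activated microglia, 6 of 8 astrocyte and 4 of 6 oligodendrocyte markers were called higher in each genotype, and all 7 cerebellum markers lower. Of 9 neuronal markers, 5 were called lower and 2 higher in each genotype.

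**Figure D3:**
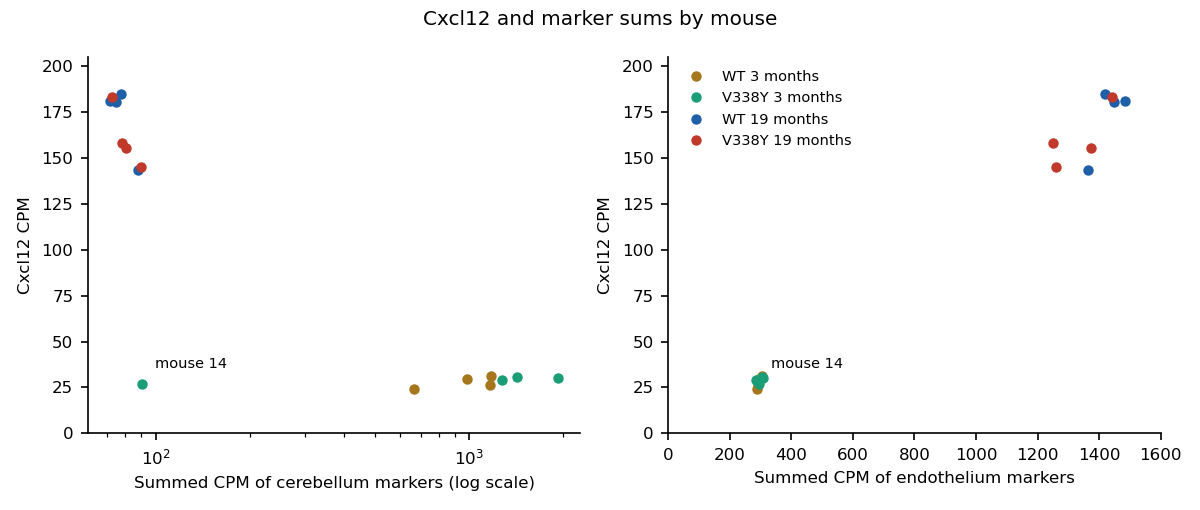
CPM of *Cxcl12* (y axis, from 0) against the summed CPM of cerebellum markers (left, log scale) and of endothelium markers (right, linear scale), where each point is 1 mouse and colours give the 4 groups. Mouse 14, with a cerebellum sum of 90.7 CPM (71.6 to 90.0 CPM in the old mice), has 26.6 CPM of *Cxcl12*, and the young and old mice form separate clusters in the endothelium panel.

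The transcripts of receptors for these ligands were measured in the same fits. Of 23 chemokine receptor genes, 9 were tested, and 8 were called higher with age in each genotype. Of all genes tested, 31.4% were called higher in wild-type and 23.1% in V338Y mice. The median log2 fold changes of the receptors were 1.02 in wild-type and 1.23 in V338Y mice, beside -0.01 and -0.03 over all genes tested. Among the receptors, *Ccr1* and *Ccr9* in both genotypes and *Ccrl2* in wild-type mice passed the filter only through the old mice. They therefore had to be higher there, and the medians contain them. *Ccr2*, the receptor of *Ccl2* and *Ccl12*, rose from 0.88 ± 0.12 to 1.73 ± 0.33 CPM in wild-type mice (log2 fold change 1.02, adjusted p = 0.00309) and by 1.31 in V338Y mice (adjusted p = 0.00227). *Ccr1*, bound by *Ccl3*, *Ccl6* and *Ccl9*, had 2 to 6 counts in young and 3 to 22 in old wild-type mice, which overlapped in CPM, and 2 to 7 against 12 to 24 counts in V338Y mice. Its fitted log2 fold changes were 1.93 (adjusted p = 0.000326) and 2.02 (adjusted p = 0.00036).

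*Cx3cr1*, the receptor of *Cx3cl1* and itself one of the microglial markers, rose from 35.4 ± 2.27 to 51.4 ± 3.49 CPM in wild-type mice (log2 fold change 0.56, SE 0.065, adjusted p = 8.68e-09) and by 0.54 in V338Y mice (adjusted p = 0.000148). *Cxcr4*, which transmits the *Cxcl12* signal, rose by 0.85 in wild-type (adjusted p = 0.000784) and by 0.54 in V338Y mice (adjusted p = 0.0457, groups overlapping). *Ackr3*, an atypical receptor that takes up *Cxcl12*, rose from 5.98 ± 1.38 to 18.2 ± 1.09 CPM in wild-type mice (1.61, adjusted p = 7.89e-13) and by 1.23 in V338Y mice (adjusted p = 4.4e-06). *Ackr1*, found on venules and red cells, was called in wild-type mice (0.83, adjusted p = 9.08e-06) and not in V338Y mice (0.25, adjusted p = 0.46). *Ackr2*, which degrades inflammatory CC chemokines, was called in V338Y mice (0.65, adjusted p = 0.0326) and not in wild-type mice (0.51, adjusted p = 0.0653). None of the 9 receptors tested for a difference between these age effects was called.

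*Cxcr3* and *Cxcr6* did not pass the filter. *Cxcr3*, the receptor of *Cxcl10*, had 5 counts in all over the 4 young and 12 over the 4 old wild-type mice, and 4 and 16 in V338Y mice. *Cxcr6*, the receptor of *Cxcl16*, had 1 count over the 4 young mice of each genotype and 26 counts over the 4 old mice of each genotype. No fold change is given for these counts.

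Other chemokine ligands did not all move the same way. Of 15 other CC ligands, 4 were tested in each genotype, of which in wild-type mice *Ccl8* was called higher and *Ccl27a* lower, and in V338Y mice *Ccl27a* and *Ccl28* lower. *Ccl8*, with at most 1 count in any young mouse, was tested only through the old mice. Of 13 other CXC and XC ligands, 4 of 4 tested were called higher in wild-type and 4 of 5 in V338Y mice, beside the 31.4% and 23.1% of all genes. *Cxcl5* and *Ppbp* in both genotypes and *Cxcl13* in V338Y mice entered only through the old mice and had to be higher, which leaves *Cxcl14* and *Pf4* with enough counts at both ages. *Pf4* averaged 0.73 CPM in young and 1.75 CPM in old wild-type mice, which did not overlap. In V338Y mice it averaged 0.73 and 1.33 CPM, and the young (0.28 to 1.26 CPM) and old mice (1.01 to 1.67 CPM) overlapped. The other ligand with the highest level, *Cxcl14*, a chemokine of resting tissues, rose from 49.5 ± 2.26 to 77.2 ± 4.81 CPM in wild-type mice (log2 fold change 0.65, adjusted p = 3.15e-11) and by 0.59 in V338Y mice (adjusted p = 0.000133). *Ccl27a*, a skin chemokine also transcribed in brain, had log2 fold changes of -0.35 in wild-type (adjusted p = 0.000252) and -0.30 in V338Y mice (adjusted p = 0.0365). *Ccl25* differed by -0.23 (adjusted p = 0.294) and by -0.12 (adjusted p = 0.58).

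The counts of this paragraph stand beside 31.4% of all genes tested that were called higher in wild-type and 23.1% in V338Y mice. Of 11 genes for proteases that release or trim chemokine ligands and for their regulators, 11 were called higher with age in wild-type and 10 in V338Y mice. The regulators among them are *Timp3*, an inhibitor of metalloproteinases, and *Rhbdf1* and *Rhbdf2*, inactive rhomboids that help *Adam17* to mature. *Mmp12*, with at most 3 counts in any young mouse, was tested only through the old mice. *Adam17* and *Adam10*, which cut *Cx3cl1* and *Cxcl16* from the membrane, rose by 0.68 (adjusted p = 1.65e-09) and 0.45 (adjusted p = 6.62e-09) in wild-type mice and by 0.62 (adjusted p = 1.41e-05) and 0.27 (adjusted p = 0.0125) in V338Y mice. Of 14 genes of NF-kB signalling and cytokines, 10 of 11 tested were called higher in wild-type and 10 of 12 in V338Y mice, where *Il1b* entered only through the old mice. Of 13 interferon-response genes, 12 were called higher in each genotype, with median log2 fold changes of 2.38 in wild-type and 1.93 in V338Y mice, and *Isg15* entered only through the old mice. *Cxcl10* belongs to the same response and is not part of that list.

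**Figure D4:**
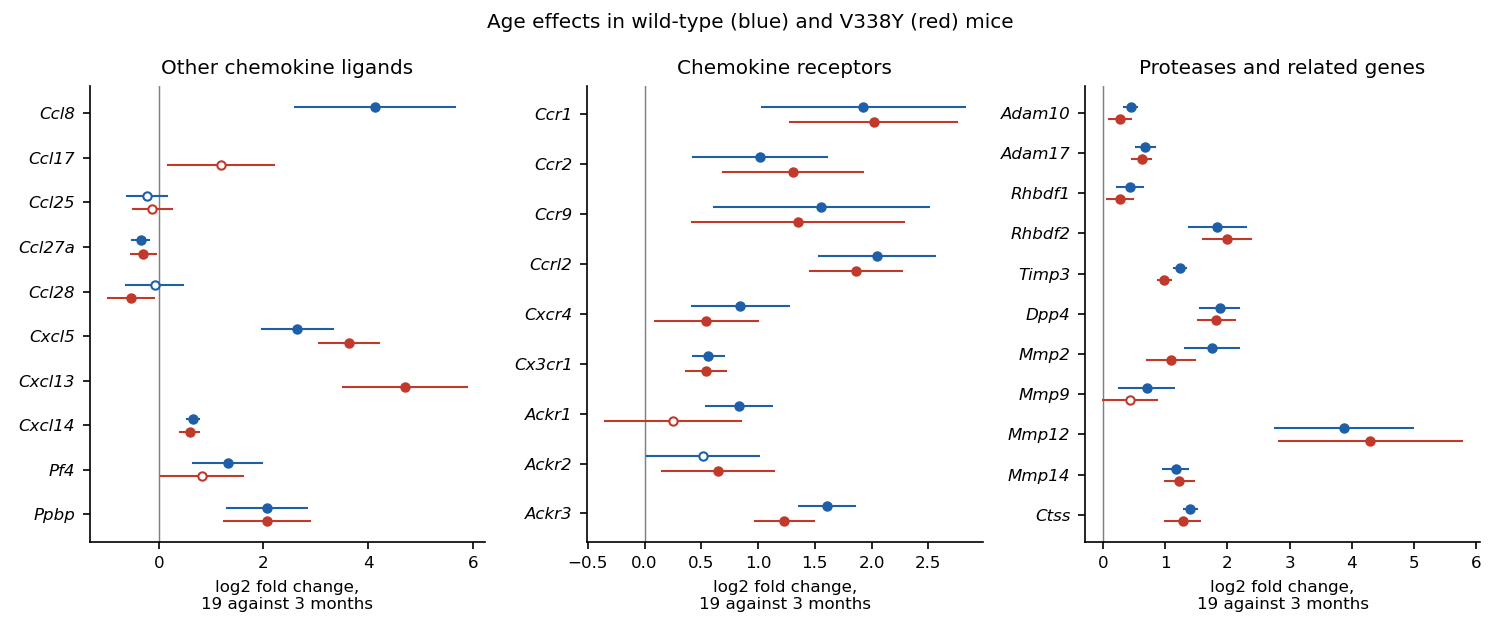
Log2 fold changes (x axis, 19 against 3 months) with 95% confidence intervals of other chemokine ligands, chemokine receptors, and proteases with their regulators (y axis, genes tested in at least 1 genotype) in wild-type (blue) and V338Y mice (red), with filled points for an adjusted p under 0.05. Among the receptors, *Ackr1* in V338Y mice (0.25) and *Ackr2* in wild-type mice (0.51) have open points, and *Ccl27a* lies below 0 in both genotypes.

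The comparison of V338Y with wild-type mice asked whether the substitution alters these transcripts at a given age. At 3 months, 5 members were tested and 0 were called with the edgeR quasi-likelihood test, beside 0.0616% of all genes tested. An unadjusted p under 0.05 in that test was found for 0 members, beside 815 of 16241 genes. With DESeq2 and with the likelihood-ratio test 0 members were called, beside 26 genes with each. All 10 overlapped in CPM, beside 3.23% of genes whose groups did not. The intervals did not show equality for the members with few counts. The log2 fold change was -0.42 for *Ccl6* (95% confidence interval -1.26 to 0.41), -0.55 for *Ccl9* (-1.37 to 0.28) and -0.46 for *Cxcl16* (-1.18 to 0.25). It was narrower for *Cxcl12*, at 0.07 (-0.12 to 0.26), and for *Cx3cl1*, at -0.04 (-0.27 to 0.20). Among the 5 members that were not tested, *Ccl12* had 5 to 8 counts in V338Y and 1 to 3 counts in wild-type mice, and its CPM ranges overlapped through wild-type mouse 9 (0.37 CPM), while the other 3 wild-type mice (0.0661 to 0.18 CPM) lay below the V338Y mice (0.25 to 0.51 CPM). Fitted without the filter, its log2 fold change was 1.08 (unadjusted p = 0.087, adjusted p = 0.863, edgeR). *Ccl2*, *Ccl3*, *Ccl4* and *Cxcl10* had at most 7 counts in any young mouse, which does not allow a difference to be detected.

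At 19 months, 9 members were tested and 0 were called with the edgeR quasi-likelihood test, beside 3.12% of all genes tested. An unadjusted p under 0.05 in that test was found for 0 members, beside 2660 of 16420 genes. With DESeq2 and with the likelihood-ratio test 0 members were called, beside 387 and 480 genes. All 10 members overlapped between the genotypes, beside 9.31% of genes that did not. *Cxcl12* was 172.6 CPM in wild-type and 160.4 CPM in V338Y mice (log2 fold change -0.10, 95% confidence interval -0.36 to 0.16), and *Cx3cl1* was 380.7 and 387.6 CPM (0.03, -0.05 to 0.10). The intervals were -0.60 to 0.11 for *Cxcl16*, -0.21 to 0.60 for *Ccl6* and -0.43 to 0.54 for *Ccl9*. For *Ccl2* (-0.30 to 0.97), *Ccl12* (-0.44 to 1.01), *Ccl3* (-0.55 to 0.91) and *Cxcl10* (-1.09 to 0.42) they reached near or past a change of 1 on at least 1 side. *Ccl4* had 31 counts in all in each genotype, over libraries that differed in size. Choroid plexus markers, of which 0 of 6 were called, summed to 2245 and 2286 CPM in V338Y mice 17 and 18 and to between 153.3 and 985.4 CPM in the other 6 old mice. Without mice 17 and 18, a setting chosen after seeing the data, 0 members were called.

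Some related genes differed between the genotypes at 19 months while the chemokines were not called. Of the 13 interferon-response genes, 5 were called lower in V338Y than in wild-type mice, beside 1.92% of all genes tested, namely *Gbp2*, *Oasl2*, *Bst2*, *Ifit3* and *Irf1*, with differences between -0.90 and -0.37 on the log2 scale. Of these, *Gbp2*, a guanylate-binding protein, was 28.7 ± 0.91 CPM in wild-type and 15.4 ± 1.83 CPM in V338Y mice (adjusted p = 1.64e-09). *Cxcl10*, another gene of the interferon response, had -0.34 there (95% confidence interval -1.09 to 0.42, adjusted p = 0.718). *Ctss*, a lysosomal protease, and *Timp3*, the metalloproteinase inhibitor, were called lower, with log2 fold changes of -0.27 and -0.30. None of the 9 receptors tested was called. Some markers of immune cells were called lower in the same comparison, and their part in these differences was not tested. Of 14 microglial markers 3 were called lower, and their sums lay between 764.2 and 784.3 CPM in wild-type and between 687.1 and 743.1 CPM in V338Y mice, without overlap. Of 10 markers of activated microglia 3 were called lower (2886 to 3052 against 2655 to 2875 CPM), and of 7 of border macrophages 1 (129.8 to 139.3 against 105.9 to 126.5 CPM), also without overlap. Of 7 markers of meninges 2 were called lower and 1 higher, and the sums overlapped (260.0 to 303.8 against 234.7 to 286.8 CPM).

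Whether age acted differently in the 2 genotypes was tested with an interaction term in a fit of all 16 mice. Of 9 members tested, 0 were called with the edgeR quasi-likelihood test, beside 0.0535% of all genes tested. An unadjusted p under 0.05 in that test was found for 0 members, beside 1723 of 16831 genes. With DESeq2 and with the likelihood-ratio test 0 members were called, beside 43 and 35 genes. The age effect of V338Y mice minus that of wild-type mice was -0.16 for *Cxcl12* (95% confidence interval -0.43 to 0.11), 0.07 for *Cx3cl1* (-0.19 to 0.33), 0.24 for *Cxcl16* (-0.52 to 1.01), 0.59 for *Ccl6* (-0.30 to 1.49) and 0.61 for *Ccl9* (-0.30 to 1.52). For *Ccl2*, *Ccl3*, *Ccl12* and *Cxcl10* the intervals spanned more than 2 log2 units. The calls of *Ccl3* and *Ccl12* in V338Y mice alone therefore do not show that their age effects differed between the genotypes, and both were removed by the filter in wild-type mice.

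**Figure D5:**
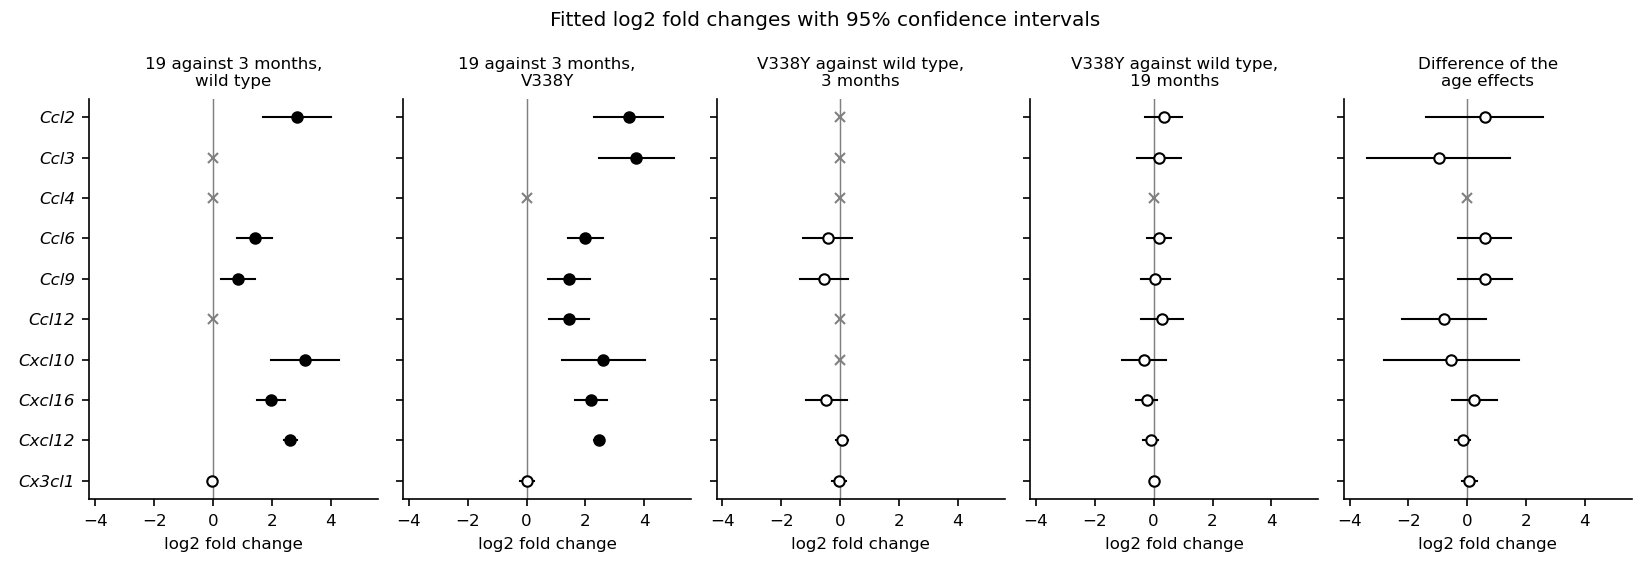
Fitted log2 fold changes (x axis) with 95% confidence intervals of the 10 members (y axis) in the 4 comparisons and the difference of the age effects (V338Y minus wild type), with filled points for an adjusted p under 0.05, open points for members not called and crosses at 0 for members not tested. Filled points occur in the 2 age panels, where *Cx3cl1* lies at -0.04 and 0.01, and the 3 panels on the genotype hold open points and crosses.

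As a description of which transcripts followed the members over the 16 mice, centred log2 CPM profiles were compared among 15232 genes for the 5 members with a mean of at least 1 CPM. Profiles of *Kdr* and *Ptprb*, both endothelial genes, were nearest to that of *Cxcl12*, with root mean square differences of 0.127 and 0.138. *Thy1* and *Pdzd4* were nearest to *Cx3cl1* (0.049 and 0.056), and *Fam180a* and *Slc6a13* to *Cxcl16* (0.262 and 0.28). For *Ccl6* they were *Sox18* and *Trim47* (0.319 and 0.325), and for *Ccl9* *Dram1* and *Adgb* (0.26 and 0.304). Much of each profile was the gap between young and old mice, and with profiles centred within each group the nearest genes were others, *Vac14* for *Cxcl12* and *Kcnab2* for *Cx3cl1*. The distances of genes with few counts contain more counting error, so they cannot be compared between members.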

How the data were processed

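The authors sequenced single-end reads of brain RNA from 16 mice and deposited, for each gene, an expected count without normalization. The methods of the study name RSEM, Ensembl 75 and GRCm37 for these, whereas the submitters' processing notes list bcl2fastq 1.8.4, STAR 2.4.2a, featureCounts and GRCm38. The deposited counts are whole and carry no more than 4 significant digits, and all 1495 values of 10000 or more ended in 0. Chemokine genes with close paralogs, such as *Ccl2* and *Ccl12* or *Ccl6* and *Ccl9*, depend on how shared reads were assigned. Of 39179 identifiers, 37607 were given a symbol from GENCODE M21 by the Ensembl identifier.

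Groups were taken from the genotype and age labels. The fits used R 4.3.3 with edgeR 4.0.16, limma 3.58.1 and DESeq2 1.42.0. A gene was kept where 2 or more of the 4 mice of a group had 10 counts or more. Counts were scaled with TMM (factors 0.954 to 1.045) and tested with the robust quasi-likelihood test, two-sided, at an adjusted p under 0.05 (Benjamini-Hochberg over all genes tested). CPM used TMM over the 16 libraries, log2 CPM a prior count of 2, and levels per kb the union of annotated exons. Where every mouse of a group had 3 counts or fewer, a fold against it is a lower bound on a floor of 3 counts per library, which covers counting error only. Between mice of a group, chi-square per degree of freedom was between 1.81 and 24.99, so none were duplicates. Total counts were between 6181448 and 19601664. The steps were tested on simulated counts. Promoter windows came from RefSeq on GRCm38.p6.

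The text names all 10 members, receptors whose ligands are members (1 is not reported here, nor is 1 gene of the interferon list), *Adam10*, *Adam17*, the 3 other ligands with the highest CPM and the 2 nearest profiles of each member with at least 1 CPM. *Ccl8*, *Ccl28*, *Ctss*, *Timp3* and the interferon-response genes were named after their values were seen. The members and gene lists were chosen with earlier results of these data known. Alternatives were the likelihood-ratio test, DESeq2, RLE factors, library size only, a stricter and no filter, a fit of all 16 mice, thinning, each mouse left out, a prior count of 0.5 and profiles centred within groups.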

Additional observations from a re-analysis of the deposited data

Results flagged for a closer look

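Of 40 sets of 4 mice, 1 for each member and group, 2 had a mouse far from the other 3 by Dixon's criterion. Chance marks about 1 in 20 sets of normally distributed values, a rate that need not hold for sets of few counts. In old wild-type mice, *Cxcl12* was 143.6 CPM in mouse 12 and between 180.4 and 185.0 CPM in the other 3. In young wild-type mice, *Ccl3* was 0.0661 CPM in mouse 10, which is 1 count, and 0 in the other 3, where any count would have been marked. With age, *Cxcl12* was called in wild-type mice under all 16 settings, those without 1 mouse included, and *Ccl3* was not tested there.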

How the results depend on the processing

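Across all alternatives, 0 members were called between the genotypes at either age or for the difference of the age effects. Requiring at least 10 counts in every sample left 3 members tested and 2 called in each genotype (6 and 8 otherwise), and thinning each library to the smallest left 3 called in wild-type and 4 in V338Y mice, in both cases with fewer members tested. All genes called higher were then 32.6% and 23.7% with the first and 30.1% and 21.3% with the second. *Cx3cl1* between V338Y ages was -0.0504 with library size only, -0.32 with mouse 14 as the sole young library, a setting chosen after seeing the data that rests on 1 library, and -0.061 to 0.147 with each mouse left out. In wild-type mice it became called with library size only (-0.14, adjusted p = 0.0031), which shifts all genes by -0.10 at the median and splits the calls into 4175 higher and 6321 lower (5050 and 5065 with TMM). In V338Y mice that split was 3421 and 5319 (3875 and 4306 with TMM), and between old genotypes 357 and 263 (196 and 316 with TMM).

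Between young genotypes, *Cx3cl1* lay between -0.165 and 0.029 with each mouse left out. Between old genotypes, the ranges were -0.0539 to 0.416 for *Ccl3*, -0.0678 to 0.191 for *Ccl9*, -0.0123 to 0.565 for *Ccl12* and -0.559 to 0.0529 for *Cxcl10*, and without mice 17 and 18 *Ccl3* was -0.27 and *Ccl9* -0.24. For the difference of the age effects they were -1.01 to 0.65 for *Cxcl10* and -0.0061 to 0.203 for *Cx3cl1*. None of these was called.

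Over all genes, the 10 calls between young genotypes became 26 with the likelihood-ratio test, 26 with DESeq2, 20 with no filter, 23 in a fit of 16 mice and 6 to 13 with each mouse left out. The 512 between old genotypes became 791, 116 and 290 with no filter, a fit of 16 mice and thinning, and 287 (without V338Y mouse 19) to 611 with each mouse left out, with 294 without wild-type mouse 13. The 9 of the interaction became 35, 43, 32 and 3 with the likelihood-ratio test, DESeq2, no filter and thinning, and 1 (without young wild-type mouse 10) to 57 (without young V338Y mouse 14) with each mouse left out. The cause was not tested. Members with too few counts under a setting were not tested in it, as *Cxcl10* in 2 of the 8 V338Y age fits with a mouse left out. Counts under 10 limit *Ccl2*, *Ccl3*, *Ccl4*, *Ccl12* and *Cxcl10* in young mice. No paired analysis was possible because the groups compared share at most 1 mouse number, and the labels do not tie numbers to animals across ages.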
